A study of Mus musculus with 2 samples.

Results

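Fc gamma receptors bind the constant part of IgG antibodies, so that a neutrophil can grip and engulf an antibody-coated target. The activating receptors Fcgr1, Fcgr3 and Fcgr4 have no signalling motif of their own and are carried by the gamma chain Fcer1g, whose cytoplasmic tail holds an ITAM, a pair of tyrosines that Src-family kinases such as Fgr and Lyn phosphorylate and that then docks the kinase Syk. Fcgr2b is the inhibitory receptor of the family and carries an ITIM, which recruits phosphatases instead. Tyrobp, also called DAP12, is a second ITAM adaptor that serves other activating receptors of myeloid cells.

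These 9 genes were taken from the expression tables of 2 libraries of mouse neutrophils by an exact match of the gene symbol, and all 9 were found among 35522 features. Neutrophils had been sorted from bone marrow as CD11b-positive, Ly-6G-high and Ly-6C-low or negative cells and were kept in RPMI-1640 with 10 ng/ml GM-CSF, a myeloid growth factor. The PBS-treated culture received PBS for 3 days, and the ELV-treated culture received 20 μg/ml of tumor exosomes for 3 days. The exosomes were vesicles shed by sphere-derived cancer stem cells (SDCSCs) grown from CT26, a mouse colon carcinoma line. The study kept Balb/C mice, for which the paper gives an age range in weeks. The labels give neither the genotype, the sex, the age nor the number of animals behind each library. The paper set a minimum purity for sorted cells, and the purity of the cells in these cultures is not given. Each treatment is 1 library, so the values below have no spread between replicates and no test between the treatments was possible. Reads mapped in each library were estimated at 65.96 M reads for PBS and 79.12 M reads for exosomes.

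Values are RPKM, a read count divided by the length of the gene's exons and by the mapped reads of the library. Following the study, genes that reached 0.25 RPKM in both libraries were kept. Those at least 2-fold higher with exosomes were called up, and those at least 2-fold lower were called down. Of the 9 genes, 8 were kept. Fcgr1 was not, as its PBS value was 0.2 RPKM. Intervals in brackets are 95% counting intervals from estimated reads. They cover counting error and no difference between cultures, animals or libraries.

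Sequence was examined first, because reads can only be given to the right receptor where the receptors differ. The genes Fcgr2b (chr1:170960558-170976071), Fcgr4 (chr1:171018926-171029761), Fcgr3 (chr1:171051169-171065915) and Fcer1g (chr1:171229572-171234349) lie near each other on mouse chromosome 1, whereas Fcgr1 is on chromosome 3 (chr3:96282909-96293969, all in GRCm38.p6). Among the longest coding transcripts in GENCODE M21, 12.8% of the 50-base windows of Fcgr3 were also found in Fcgr2b, and 4.75% of those of Fcgr2b were found in Fcgr3. At 100 bases the shares were 3.53% and 1.28%. No 50-base window of Fcgr1 or Fcgr4 occurred in another of the receptors. Reads from the shared stretches of Fcgr2b and Fcgr3 cannot be assigned by sequence, and how the authors treated them is not stated. The longest run that the coding sequences of this inhibitory and this activating receptor have in common is 129 bases, at coding positions 278 to 406 of Fcgr2b and 263 to 391 of Fcgr3. It is shown as the longest coding stretch where the reads of these receptors, which moved differently, cannot be told apart. The shared windows counted above also include stretches outside it.
Fcgr2b and Fcgr3, shared coding run: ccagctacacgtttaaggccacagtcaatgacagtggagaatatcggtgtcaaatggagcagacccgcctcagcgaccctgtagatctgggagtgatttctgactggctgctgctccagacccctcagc

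The 250 bases before each listed transcription start were read from RefSeq (GRCm38.p6, the C57BL/6J reference), which held 7 of the 9 genes. The start sites of Tyrobp and Lyn were not among them. Each window was searched on both strands for GAGGAAG, a form of the site bound by PU.1, the ETS factor of myeloid cells, and for TTCNNNGAA, the GAS element bound by STAT dimers. The motifs were chosen after the sequences had been seen. Of 32851 promoter windows of this length, 10.6% held the first and 7.02% the second. The PU.1 letters were found, as their complement CTTCCTC, in all 3 activating receptor promoters: their first base stood 56 bases before the start of Fcgr1, 23 before that of Fcgr4, and 16 or 7 before the listed start sites of Fcgr3. The listed Fcgr3 start sites lie inside the span of the gene given above. On this strand the span begins at chr1:171065915, and no window at that outer end was searched. Neither motif was found in the windows of Fcgr2b, Fcer1g, Syk or Fgr. The GAS letters were found in Fcgr1 alone of the 7, as TTCCCAGAA, beginning 109 bases before the start. In the windows below, written in the direction of transcription, capitals mark these matches. They are shown to set the 3 activating receptors, of which Fcgr3 fell and Fcgr4 rose, beside the inhibitory one. The matches do not show binding, and the motif that the 3 promoters have in common stands in genes that moved in opposite directions.
Fcgr1 (chr3:96293970-96294219, minus strand): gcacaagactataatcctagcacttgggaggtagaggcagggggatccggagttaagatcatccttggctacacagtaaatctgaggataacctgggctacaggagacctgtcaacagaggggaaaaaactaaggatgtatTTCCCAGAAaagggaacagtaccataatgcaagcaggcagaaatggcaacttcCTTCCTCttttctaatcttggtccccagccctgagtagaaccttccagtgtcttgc
Fcgr3 (chr1:171059395-171059644, minus strand): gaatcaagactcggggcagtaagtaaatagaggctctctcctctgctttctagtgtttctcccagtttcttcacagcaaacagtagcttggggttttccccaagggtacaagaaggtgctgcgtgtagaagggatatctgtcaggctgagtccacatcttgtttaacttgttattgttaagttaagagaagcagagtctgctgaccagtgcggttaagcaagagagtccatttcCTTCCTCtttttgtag
Fcgr4 (chr1:171018676-171018925, plus strand): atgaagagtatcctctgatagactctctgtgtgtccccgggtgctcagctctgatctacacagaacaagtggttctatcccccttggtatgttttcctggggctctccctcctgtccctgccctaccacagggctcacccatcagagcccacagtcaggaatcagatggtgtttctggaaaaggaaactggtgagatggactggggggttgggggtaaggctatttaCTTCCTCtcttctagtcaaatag
Fcgr2b (chr1:170976072-170976321, minus strand): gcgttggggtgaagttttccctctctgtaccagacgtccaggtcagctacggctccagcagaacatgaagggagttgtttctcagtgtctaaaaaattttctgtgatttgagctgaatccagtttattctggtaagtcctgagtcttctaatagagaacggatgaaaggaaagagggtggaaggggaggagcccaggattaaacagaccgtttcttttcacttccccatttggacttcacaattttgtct

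The receptors moved apart from each other. Fcgr3, the low-affinity activating receptor that made up most of the receptor RNA in the PBS library, stood at 448.99 RPKM in PBS-treated and 145.78 RPKM in exosome-treated neutrophils. It fell 3.08-fold, a log2 ratio of -1.62 (-1.65 to -1.60), and 2.24% of all genes kept had a lower log2 ratio. Fcgr4, the other activating receptor of mouse neutrophils, stood at 33.33 RPKM in PBS and 91.48 RPKM with exosomes. It rose 2.74-fold, a log2 ratio of 1.46 (1.40 to 1.52). These neighbouring genes, whose products use the same gamma chain, were therefore called in opposite directions.

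Fcgr2b, the inhibitory receptor, stood at 53.66 RPKM in PBS and 63.82 RPKM with exosomes, a log2 ratio of 0.25 (0.22 to 0.28), within the 2-fold limit. Fcgr1, the high-affinity receptor, stood at 0.2 RPKM in PBS and 1.19 RPKM with exosomes, about 34 and 244 estimated reads. Its ratio of 5.95 has a counting interval of 4.17 to 8.84, and rounding of the deposited values alone allows 5.78 to 6.13. Fcgr1 was thus the receptor with the largest ratio and the lowest level in each library.

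Of the 8 genes kept, 2 were called up and 1 down, where 31.5% of the 9698 genes kept were up and 5.62% were down. With 8 genes these counts are too small to set the group apart from the rest, and none of them passed a 4-fold limit, which 8.52% of all genes kept passed upward and 1.14% downward. The genes kept at a mean level of 50 RPKM or more, where all 8 lie, are a closer comparison for level: 12.5% of these 1099 genes were up and 11.4% were down. The median log2 ratio of the 8 genes was 0.45, against 0.53 over all genes kept and 0.04 over those at 50 RPKM or more. With Fcgr1, which failed the filter, the median of the 9 genes was 0.65. Among the genes nearest to Fcgr4 in level the median log2 ratio was 0.10, and among those nearest to Fcgr2b it was 0.05. Fcgr3, the adaptors and the kinases stand so near the top of the range that they share 1 window, that of the most abundant genes, whose median was 0.00047.

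**Figure D1:**
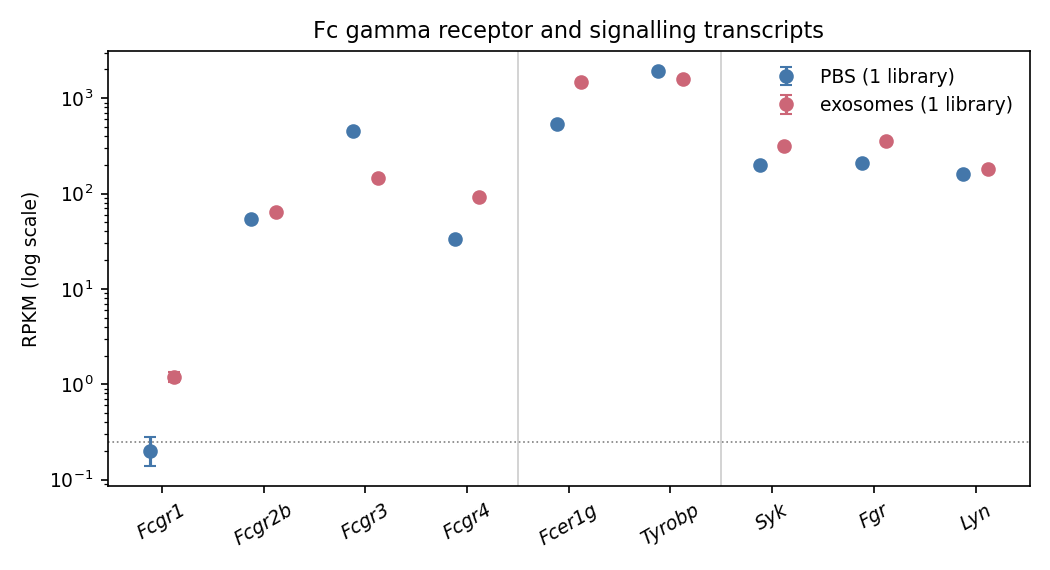
RPKM (log axis) of the 9 genes in the PBS library (blue) and the exosome library (red), 1 library each, with receptors, adaptors and kinases separated by grey lines. Bars are 95% counting intervals, mostly smaller than the points, and the dotted line is the 0.25 RPKM limit; Fcgr3 is lower and Fcgr1, Fcgr4 and Fcer1g are higher with exosomes.

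A ratio of genes within a library does not depend on how the libraries were scaled to each other. The Fcgr4 to Fcgr3 ratio of RPKM was 0.0742 in PBS and 0.628 with exosomes, 8.45 times as high (8.07 to 8.86). Fcgr3 held 83.7% of the summed RPKM of the 4 receptors in PBS and 48.2% with exosomes. Fcgr4 held 6.22% and 30.3%. Fcgr2b held 10.0% and 21.1%, and Fcgr1 held 0.0373% and 0.394%. The summed level itself was 536.18 RPKM in PBS and 302.27 RPKM with exosomes, so the receptor pool was smaller and more evenly divided in the exosome library.

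The balance of activating to inhibitory receptor RNA rested on Fcgr3. The summed RPKM of Fcgr1, Fcgr3 and Fcgr4 was 8.99 times that of Fcgr2b in PBS and 3.74 times with exosomes, 2.41-fold lower. With Fcgr3 left out of the sum the ratio was 0.625 in PBS and 1.45 with exosomes, 2.32-fold higher. The direction of this balance thus turned on a gene that shares part of its sequence with the inhibitory receptor to which it was compared.

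**Figure D2:**
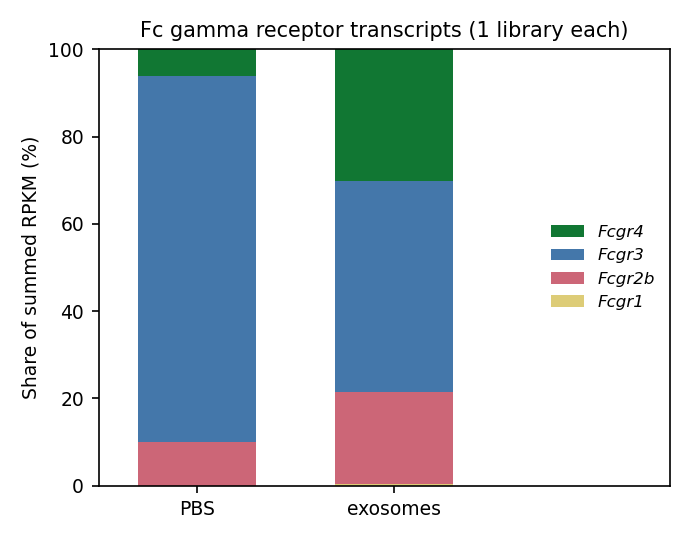
Share (%) of the summed RPKM held by each of the 4 Fc gamma receptors in the PBS and the exosome library, 1 library each. Fcgr3 takes 83.7% of the receptor sum in PBS and 48.2% with exosomes, and Fcgr4 and Fcgr2b take larger shares with exosomes.

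The adaptors were the most abundant of the 9 transcripts, and they did not move together. Fcer1g stood at 538.25 RPKM in PBS and 1489.47 RPKM with exosomes. It rose 2.77-fold, a log2 ratio of 1.47 (1.45 to 1.49), and went from rank 58 to rank 14 among all features by RPKM. Tyrobp stood at 1935.56 RPKM in PBS and 1571.41 RPKM with exosomes, a log2 ratio of -0.30 (-0.32 to -0.29), within the 2-fold limit. The adaptor that carries Fc receptors thus approached the level of the adaptor that does not.

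The Fcer1g to Tyrobp ratio was 0.278 in PBS and 0.948 with exosomes, 3.41 times as high (3.35 to 3.47). Fcer1g stood at 1.12 times the summed RPKM of its activating Fc gamma receptors in PBS and at 6.25 times with exosomes, 5.60 times as high (5.48 to 5.72). This change rested on Fcgr3. With Fcgr3 left out, a comparison added after the values were seen, Fcer1g stood at 16.05 times the summed RPKM of Fcgr1 and Fcgr4 in PBS and at 16.07 times with exosomes, with a counting interval of the change from 0.957 to 1.05 times.

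Fcer1g and Tyrobp also serve receptors that do not bind IgG, and these were counted over a list of 21 genes. Of 16 kept, 2 were up and 1 was down, where 31.5% of all genes kept were up and 5.62% were down, and the median log2 ratio was 0.14 against 0.53. Median centring gave 1 up and 3 down, and centring at a similar level gave 1 and 1. Over all 9698 genes kept, these scalings gave 1634 up and 1282 down, and 1223 and 1319. Among genes at 50 RPKM or more 12.5% were up and 11.4% were down, with a median log2 ratio of 0.04. Trem2, a lipid-sensing receptor that pairs with Tyrobp, rose from 0.91 to 2.79 RPKM, and Cd300ld, which pairs with Fcer1g, rose from 20.8 to 56.93 RPKM. Cd300lb, which signals through Tyrobp, fell from 237.55 to 115.36 RPKM. These 3 genes are named after their values were seen. The summed RPKM of the list was 2002.74 in PBS and 1706.71 with exosomes, a sum that takes in partners of either adaptor.

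The kinases stayed within 2-fold. Syk, which binds the phosphorylated ITAM, stood at 200.46 RPKM in PBS and 315.23 RPKM with exosomes, a log2 ratio of 0.65 (0.64 to 0.67). Fgr, a Src-family kinase of neutrophils and monocytes, stood at 210.11 and 352.48 RPKM, a log2 ratio of 0.75 (0.73 to 0.76). Lyn, the Src-family kinase that phosphorylates both ITAMs and ITIMs, stood at 160.26 and 181 RPKM, a log2 ratio of 0.18 (0.16 to 0.20). All 3 were higher with exosomes, as were 7079 of the 9698 genes kept. The ratios of Syk, Fgr and Lyn were 1.57, 1.68 and 1.13. Src, the founding member of the Src family, was at 0.46 RPKM in PBS and 0.4 RPKM with exosomes, far below Fgr and Lyn.

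By level, the order in PBS was Tyrobp, Fcer1g, Fcgr3, Fgr, Syk, Lyn, Fcgr2b, Fcgr4 and Fcgr1. With exosomes it was Tyrobp, Fcer1g, Fgr, Syk, Lyn, Fcgr3, Fcgr4, Fcgr2b and Fcgr1. Fcgr3 went from the third to the sixth place and Fcgr4 passed Fcgr2b. The counting intervals of neighbours did not overlap in either library. The closest, as a ratio of levels, were Fgr (208 to 212 RPKM) and Syk (199 to 202 RPKM) in PBS, and Tyrobp (1560 to 1583 RPKM) and Fcer1g (1479 to 1500 RPKM) with exosomes. Without replicates it is unknown whether such neighbours differ beyond the spread between cultures.

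**Figure D3:**
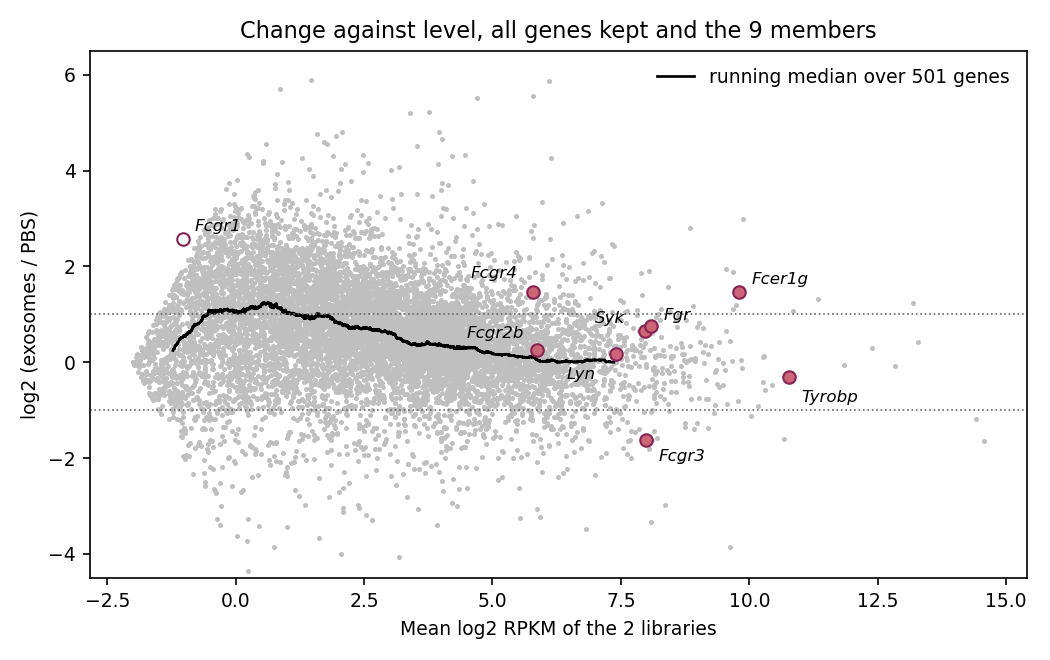
Log2 ratio of exosome to PBS RPKM against the mean log2 RPKM of the libraries for the genes kept (grey), with the 9 genes in red (Fcgr1, not kept, as an open circle). The black line is a running median that stops short of the ends of the range, and dotted lines mark the 2-fold limits; the 8 genes kept lie at high levels, at or beyond the stretch where the line is near 0.

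The scaling of the libraries decided the calls of the genes that were up. The median log2 ratio of all genes kept was 0.53 as deposited, and setting it to 0 left Fcgr4 at 0.93 and Fcer1g at 0.94, just short of the 2-fold limit, with none of the 8 genes up. Fcgr3 was then at -2.15 and stayed down. Of all 9698 genes kept, 1634 were then up and 1282 down. Fcgr2b changed sign to -0.28 and Lyn to -0.35, whereas Syk stayed positive at 0.13, Fgr at 0.22 and Fcgr1 at 2.05, and Tyrobp was at -0.83. When the median was set to 0 only among genes at a similar level, which left the genes of the top window almost where they were, Fcgr4 stood at 1.36, Fcer1g at 1.47 and Fcgr3 at -1.62, and the same 3 genes were called. Fcgr3 was lower and Fcgr1, Fcgr4 and Fcer1g were higher under each of the 6 scalings plotted.

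**Figure D4:**
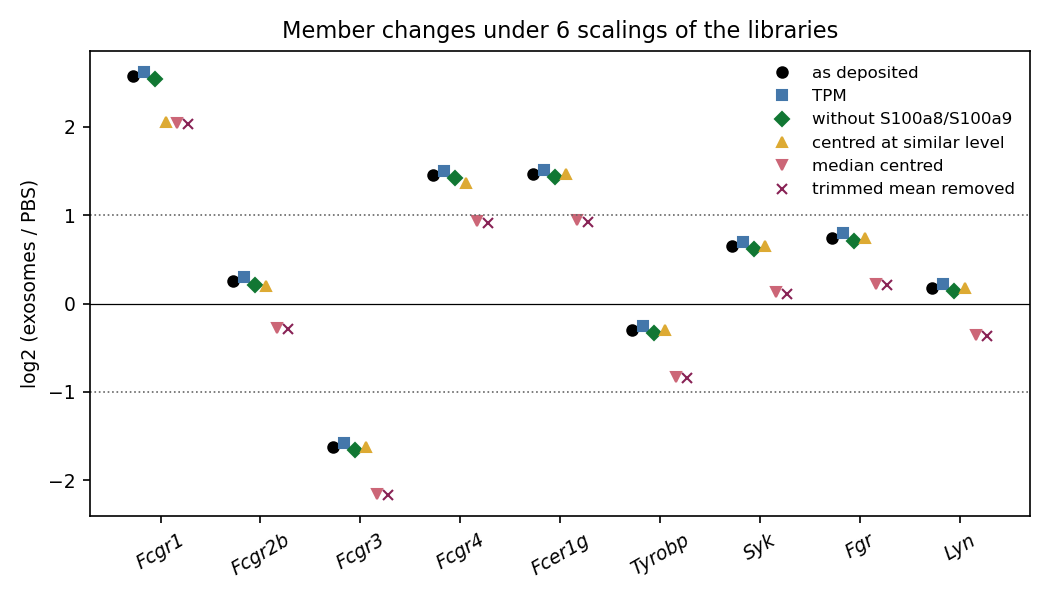
Log2 ratio of exosome to PBS RPKM for the 9 genes under 6 scalings of the libraries, 1 symbol for each scaling, with dotted lines at the 2-fold limits. Median centring and trimmed mean removal bring Fcgr4 and Fcer1g just below the upper limit and turn Fcgr2b and Lyn negative, and Fcgr3 stays below the lower limit.

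Below Syk the pathway was mostly within 2-fold. Of 50 genes of the activating cascade 47 were kept, of which 3 were up, 1 was down and 43 were within the limits, with a median log2 ratio of 0.15 against 0.53 over all genes kept, of which 31.5% were up and 5.62% down. Median centring gave 2 up and 6 down in this list, and removal of a trimmed mean gave 2 and 8. Centring at a similar level gave 2 up and 6 down. Over all 9698 genes kept, these scalings gave 1634 up and 1282 down, 1594 and 1322, and 1223 and 1319. Among genes at 50 RPKM or more, a closer comparison for the abundant genes of this list, 12.5% were up and 11.4% were down. Their median log2 ratio was 0.04. Pik3ap1, an adaptor that brings phosphoinositide 3-kinase to the membrane, rose from 34.91 to 289.34 RPKM, an 8.29-fold rise. The other genes past the limit, named after their values were seen, were Prkcb, a protein kinase C, which rose from 33.01 to 117.2 RPKM, Vav2, an exchange factor, which rose from 1.2 to 3.01 RPKM, and Bmx, a Tec-family kinase, which fell from 34.8 to 12.7 RPKM.

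Other partners of the cascade had values within the 2-fold limit. The scaffold gene Lcp2, which encodes SLP-76, was at 51.52 RPKM in PBS and 82.03 RPKM with exosomes. Vav1, the main exchange factor of blood cells, was at 58.6 and 103.09 RPKM. Rac2, the GTPase that it activates in neutrophils, was at 300.47 and 497.14 RPKM. These 3 genes of the route to the actin cytoskeleton and the oxidase were each higher with exosomes and within the 2-fold limit. Of all 9698 genes kept, 7079 were higher with exosomes, and the median log2 ratio was 0.53.

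Plcg2, the phospholipase C of the pathway, was at 69.06 and 57.62 RPKM, and Pik3cd, a phosphoinositide 3-kinase subunit of leukocytes, was at 56.59 and 80.28 RPKM. The log2 ratios of Card9, which links Syk to NF-κB, Btk, a Tec-family kinase, and the adaptor Lat2 were -0.06, -0.10 and -0.46. None of these 5 genes passed the limit.

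Negative regulators were called at about the rate of all genes. Of 23 genes 20 were kept, of which 6 (Dok2, Ubash3b, Ptprj, Sla, Cblb and Ptpn11) were up and 2 (Inpp4a and Pag1) were down. Of these, all but Dok2 and Ubash3b are named after their values were seen. Over all genes kept 31.5% were up and 5.62% were down. The median log2 ratio of the list was 0.27 against 0.53 over all genes kept and 0.04 over those at 50 RPKM or more. Median centring gave 2 up and 2 down, and centring at a similar level gave 4 and 3. Over all 9698 genes kept, these scalings gave 1634 up and 1282 down, and 1223 and 1319. Dok2, an inhibitory adaptor, rose from 2.85 to 18.17 RPKM, and Ubash3b, a phosphatase that acts on Syk, rose from 11.48 to 56.07 RPKM. Ptpn11, which encodes SHP-2, reached a ratio of 2.0009 and stood at the limit itself. Pag1, a membrane anchor of the kinase Csk, fell from 121.07 to 58.19 RPKM.

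The phosphatases that ITIMs recruit differed in level. Ptpn11, named above, was at 11.13 RPKM in PBS and 22.27 RPKM with exosomes. Ptpn6, which encodes SHP-1, was at 278.66 RPKM in PBS and 546.4 RPKM with exosomes, a ratio of 1.96 and just under the limit. Inpp5d, which encodes SHIP-1, the phosphatase through which Fcgr2b mainly acts, was at 81.53 and 74.61 RPKM. Csk, which switches off Src-family kinases, was at 74.54 and 102.2 RPKM, and the ubiquitin ligase gene Cbl was at 48.74 and 59.23 RPKM. The inhibitory receptor Fcgr2b, its phosphatase Inpp5d and the ligase Cbl thus all lay within 2-fold.

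**Figure D5:**
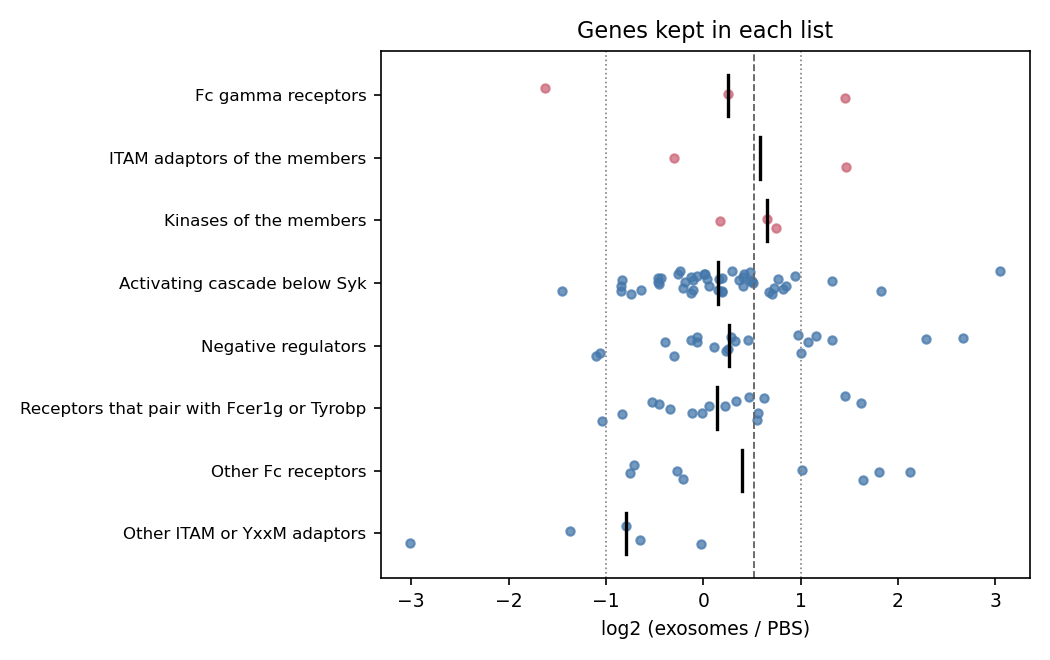
Log2 ratio of exosome to PBS RPKM for the genes kept in each list, with the 8 kept of the 9 genes in red and the wider lists in blue; vertical placement within a row is arbitrary. Short black bars are list medians, the dashed line is the median of all genes kept (0.53) and dotted lines are the 2-fold limits; most genes of the activating cascade lie within them.

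Marker genes of neutrophils and of monocytes and macrophages also moved. Of 15 neutrophil markers 10 were called down and none up, where 5.62% of all genes kept were down and 31.5% were up. Among genes at 50 RPKM or more 11.4% were down and 12.5% were up. The summed level of the 15 neutrophil markers was 84921 RPKM in PBS and 30873 RPKM with exosomes, beside the fall of Fcgr3. Most of this sum was S100a8, at 32823 and 14382 RPKM, and S100a9, at 43059 and 13834 RPKM. The sorting marker gene Ly6g fell from 286.96 to 56.19 RPKM, and Itgam, which encodes CD11b, was at 312.74 and 393.4 RPKM. Of 14 monocyte and macrophage markers 8 were kept, of which 4 were called up and 1 down. Over all genes kept 31.5% were up and 5.62% were down. These calls stand beside the higher values of Fcgr1, Fcgr4 and Fcer1g. The summed level of the 14 markers was 352.04 RPKM in PBS and 501.73 RPKM with exosomes. Ly6c2, part of the Ly-6C antigen and the most abundant of these markers in PBS, fell from 184.41 to 37.12 RPKM. Emr1, which encodes F4/80, rose from 20.91 to 151.51 RPKM and Csf1r rose from 58.1 to 152.64 RPKM, and no marker of this list was at 0 in either library. The other genes up were near the 0.25 RPKM filter in PBS: C1qb at 0.3 and 2.3 RPKM, and C1qc at 0.27 and 3.79 RPKM. Setting the median log2 ratio of all genes kept, 0.53, to 0 takes Csf1r, at 1.39, below the upper limit. In a bulk library a changed number of cells of a type and a changed amount of RNA per cell cannot be told apart, and the part of either in the Fc receptor values was not tested.

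B cells carry Fcgr2b, Syk and Lyn, and their markers were present in each library. All 6 B cell markers were kept and none was called as deposited, where 31.5% of all genes kept were up and 5.62% were down. Each was lower with exosomes, from a log2 ratio of -0.50 for Pax5 to -0.79 for Cd79b. Their median was -0.66 against 0.53 over all genes kept, and setting that 0.53 to 0 takes all 6 past the lower limit. Of all 9698 genes kept, 1282 were then down. The summed level of the 6 markers was 109.19 RPKM in PBS and 67.54 RPKM with exosomes. Fcgr2b stood at 53.66 and 63.82 RPKM beside them. The part of B cells in the Fcgr2b value was not tested.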

How the data were processed

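RNA of 1 PBS-treated and 1 ELV-treated neutrophil culture was sequenced from TruSeq mRNA libraries. The authors removed low-quality bases, used CLC Genomics Workbench for mapping and quantification, and deposited RPKM values, 1 for each feature of a library. The submitters' processing notes name mm10. The gene models and the treatment of multiply matching reads are not given in the sources used here. Commas inside 21 PBS and 23 exosome values were removed.

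The rule for calls was that of the study, without a pseudocount. Mapped reads were estimated from features below 0.01 RPKM, where many values are 1 read: with the longest GENCODE M21 transcript of the symbol as length, 225 of 918 PBS and 270 of 1064 exosome features gave 1 total within 0.5%. Intervals of a gene are exact Clopper-Pearson or Poisson intervals of estimated reads, and those of within-library ratios use Poisson variances on the log scale. Scripts (Python 3.11.15, pandas 2.3.3, SciPy 1.17.1) were tested on simulated reads.

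Named by rule were the 9 genes, a list of their direct partners, and list genes changed at least 4-fold. Other list genes changed less than 4-fold were named after their values were seen. The members and lists were chosen with earlier results of these data known, so no list was tested. Alternatives were other scalings, filters, pseudocounts and limits, and for the receptors leaving out Fcgr3 (for the Fcer1g ratio added after the data were seen) or summing it with Fcgr2b. Results of some genes are not reported here.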

Additional observations from a re-analysis of the deposited data

How the results depend on the processing

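No paired analysis was possible because each treatment is 1 library, and for the same reason no replicate could be left out. Median centring gave 1634 genes up and 1282 down, 0 of the 9 genes up, a median log2 ratio of 0.13 for the 9 genes, and 8 up and 19 down in the 6 pathway lists (as deposited: 3056, 545, 2, 0.65, 16 and 6). Removal of a trimmed mean gave 1594 and 1322, 0, 0.11, and 8 and 22. Centring at a similar level gave 1223 and 1319 genes and 9 and 20 in the lists, with 2 members up and 1 down. The share of up among called genes was 84.9% as deposited, and 56.0%, 54.7% and 48.1% under these 3 settings, which assume that most genes do not change. The median of the 9 genes was 0.70 in TPM, 0.62 without S100a8 and S100a9 in the total, 0.45 over the 8 genes at 1 RPKM or more, and 0.70 with Fcgr2b and Fcgr3 summed. A limit of 1 RPKM left 1958 of 7644 genes up, against 3056 of 9698 as deposited, a smaller share as well as a smaller number. A pseudocount of 1 RPKM left 1976 up and 9 up in the lists. A required ratio of 4 left 826 up and 111 down, 0 members up and 0 down, and 4 up and 1 down in the lists. The log2 change of the activating to inhibitory ratio was -1.27 and reversed to 1.22 without Fcgr3. That of Fcer1g to the activating receptors was 2.49 and became 0.0018 without Fcgr3, a setting chosen after seeing the data. With 0.25 RPKM required in either library and a pseudocount of 0.25, Fcgr1 was called too, at 1.68. With a pseudocount of 1 RPKM its log2 ratio was 0.87. Among the 9 genes depth limits mainly Fcgr1, which rests on about 34 reads in PBS.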

Other observations

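Other Fc receptors were low in these libraries. Of 13 genes 8 were kept, of which 4 were up and none was down, with a median log2 ratio of 0.40 against 0.53 over all genes kept, of which 31.5% were up and 5.62% down. The direction of these counts depended on the scaling: centring at a similar level gave 1 up and 3 down. That scaling gave 1223 up and 1319 down over all 9698 genes kept. Fcgrt, which encodes the neonatal Fc receptor that recycles IgG, rose from 0.25 to 1.09 RPKM, a 4.36-fold rise from a value at the filter itself. Trim21, a cytosolic Fc receptor and ubiquitin ligase, rose from 2.18 to 6.82 RPKM. The other genes up, named after their values were seen, were Fcrls, at 0.43 and 1.5 RPKM, and Fcrl1, a receptor of B cells, at 10.28 and 20.76 RPKM. The other chains of the high-affinity IgE receptor, whose gamma chain is Fcer1g, did not reach 0.25 RPKM in both libraries. Fcer1a was at 0.12 and 0.1 RPKM and Ms4a2 at 0.14 and 0.25 RPKM, far below Fcer1g.

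Among 7 other signalling chains 5 were kept, of which none was up and 2 were down, against 31.5% up and 5.62% down over all genes kept. Median centring gave 4 down, where 1282 of all 9698 genes kept were then down. Hcst, which encodes the adaptor DAP10 with a motif for phosphoinositide 3-kinase, was at 75.95 and 74.67 RPKM. Cd3d, a chain of the T cell receptor complex, fell from 56.44 to 7.02 RPKM, while Cd3e was at 0.06 and 0.04 RPKM, and Cd247 fell from 0.8 to 0.31 RPKM. Summed marker levels in PBS and with exosomes were 33.7 and 22.2 RPKM for dendritic cells, 57.8 and 7.83 for T and NK cells (mostly Cd3d), 2.61 and 3.26 for mast cells and basophils, 10.6 and 5.29 for eosinophils, 27.1 and 26.7 for red cells and platelets, and 1.20 and 1.06 for epithelial cells.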
